A study of Sus scrofa with 9 samples.

Results

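Parthenogenetic hatched blastocysts (PA HB) of the pig were compared with hatched blastocysts that had developed in vivo (IVV HB). The arrays were taken by their titles, 3 of PA HB against 3 of IVV HB out of 9 in the series, and each array held the RNA of 1 pool of 5 embryos. IVV HB were collected from artificially inseminated gilts, with a labelled time of 5.5 days post insemination. PA HB arose from mature oocytes that were activated without sperm, by ionomycin followed by 6-dimethylaminopurine, and then grew in culture medium for several days, although their label gives 7 hpf. Embryo RNA was amplified, labelled with Cy5 and hybridised together with a Cy3-labelled pool of amplified RNA from oocytes and embryos of many stages, and the dyes were not swapped. A value is taken as the log2 ratio of an embryo pool over that common reference, and a difference between groups is given as PA HB minus IVV HB on the same log2 scale. The remaining 3 arrays, of embryos made by chromatin transfer (CT HB), formed neither group. They entered the estimate of the spread, the alternative normalizations, a shared profile of probes described below and a sorting of genes by level. The labels do not say whether the pools of a group came from separate collections, so that p-values measure only the spread between these pools. PA HB differed from IVV HB in genome, in oocyte maturation, in culture and in age at once, and these cannot be told apart. The sex of the embryos in the IVV HB pools is not stated.

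A hatched blastocyst has left the zona pellucida. Its outer epithelium, the trophectoderm, seals and pumps fluid into a central cavity, and its inner cell mass gives rise to the epiblast and to the hypoblast, the first endoderm. A parthenote carries maternal chromosomes only, so that genes expressed from the paternal allele alone lack their active copy and those expressed from the maternal allele alone may hold 2 active copies, and both of its X chromosomes come from the oocyte. A pool contains whole embryos, and fewer cells of a type and less RNA per cell cannot be told apart.

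Gene symbols were available for 10344 of 23971 probes, which stood for 7495 genes after averaging. A gene counted as changed where the groups differed by at least 2-fold and limma gave an adjusted p (Benjamini-Hochberg over all genes) no higher than 0.05. This applied to 578 genes (7.71%), of which 325 were higher in PA HB (4.34%) and 253 lower (3.38%), and the median difference over all genes was 0.01. After quantile normalization 38.5% of the changed genes were higher, after scale normalization 67.6%, and without profile probes 44.2%, against 56.2% in the deposited values. The values of the 3 PA HB arrays spread more widely, with interquartile ranges of 0.85 to 1.03, than those of the IVV HB arrays (0.55 to 0.67). For 30.8% of all genes, and for 535 of the 578 changed genes, no PA HB array overlapped an IVV HB array. The 77 gene families examined here held 2621 genes, of which 139 rose and 100 fell. Of these 239 changed genes, 92 also passed without each of the 9 arrays in turn, and 60 of the 92 passed after median centring, quantile and scale normalization as well. The others were 49 genes with 1 of the profile probes described next and 98 genes without. Leaving out IVV HB 1 ended 137 of the 239 calls, PA HB 2 119, PA HB 3 90 and IVV HB 3 81. The other 5 arrays ended 9 to 21 calls each.

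A group of 545 probes shared 1 profile over the 9 arrays, that of *ASAP3*, *IL12A*, *LIPE* and *KAT5*. Their median log2 ratio was 2.36, 3.52 and 3.57 in PA HB 1 to 3 and 0.40, 2.30 and 1.10 in IVV HB 1 to 3. IVV HB 2 thus stood next to PA HB 1. Such probes were present in 207 genes, of which 123 were called higher and 0 lower, a direction that the profile itself fixes. Within the families, 54 of the 139 higher genes held a profile probe, and 49 of the 54 lost their call without at least 1 array, in most cases without IVV HB 1 (49), PA HB 2 (48), IVV HB 3 (46) or PA HB 3 (46). Quantile normalization ended the call of all 54 and scale normalization that of 51. They include *RAB34*, *RAB6B*, *RAB39B*, *TBC1D20* and *TBC1D9B*, 5 of the 6 higher genes of RAB-dependent membrane traffic, and the chemokine genes *AMCF-II*, *CCR1* and *CXCR4*, 3 of the 4 higher ones. The acetyltransferase genes *KAT5* and *KAT7* and the acetyl-lysine reader *BRD2*, all 3 higher genes of histone acetylation, belong to them too, as do *AGO1*, which binds microRNAs, the energy sensor kinase subunit *PRKAA2* and the retinoblastoma gene *RB1*. The part of the profile in these calls was not tested, and the genes are not counted as single results below. Genes without such a probe followed the profile to different degrees: over the 9 arrays the correlation with its median was 0.98 for *YWHAQ*, 0.95 for *CITED1* and 0.86 for *GATA6*, but 0.38 for *TPM4*, 0.14 for *PERP* and -0.22 for *IL6*. For most genes named below this correlation is not given, so their calls are not shown to be independent of the profile.

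**Figure D1:**
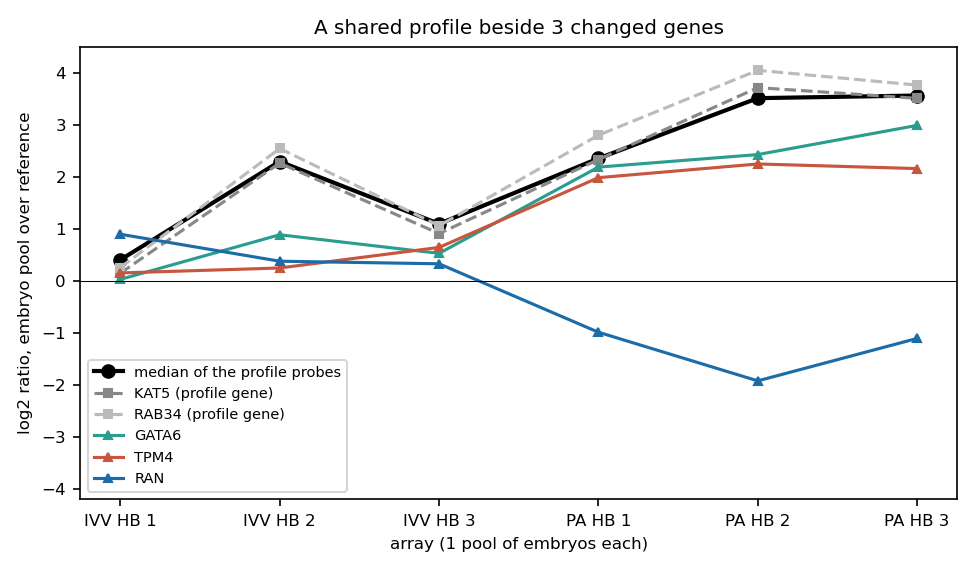
Log2 ratio of embryo pool over reference (vertical axis) on each IVV HB and PA HB array (horizontal axis) for the median of the 545 profile probes, 2 profile genes and 3 other genes; lines only join the arrays and imply no order. The profile rises from 1.10 to 2.30 between IVV HB 3 and IVV HB 2, just below the 2.36 of PA HB 1. *GATA6*, *TPM4* and *RAN* separate all 3 PA HB arrays from all 3 IVV HB arrays, and *GATA6* ranks the arrays in the same order as the profile.

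Genes that depend on the parent of origin were examined first, because PA HB lack the paternal genome. None of the 16 measured imprinted genes was changed, and none reached an adjusted p below 0.11. Both lists were set by gene symbol, and imprinting of their members in pig blastocysts was not tested. An unchanged gene on them may thus not be imprinted at this stage. The 9 genes expressed from the paternal allele had a median difference of 0.02, close to the 0.01 of all genes. *MEST*, a hydrolase-like gene and a standard paternally expressed marker, read -3.01, -1.11 and -0.89 in PA HB 1 to 3 and -1.10, -1.76 and -0.92 in IVV HB 1 to 3 (log2 difference -0.41, SE 0.45, adjusted p = 0.59). PA HB 1 was far below the other 5 arrays, which overlapped, and the difference turned positive without that array. *PLAGL1*, a zinc finger gene that restrains growth, differed by 0.38 and *DIRAS3*, a RAS-related growth suppressor, by -0.19, with adjusted p of 0.29 and 0.46, although the *DIRAS3* arrays of both groups did not overlap. The other 6, *GNAS*, *INPP5F*, *NNAT*, *PON1*, *SGCE* and *Impact*, were closer to 0, the largest in size being 0.12 for *GNAS*, and *GNAS*, a complex locus with transcripts of either allele, had 4 probes that did not share a sign.

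The 7 genes expressed from the maternal allele had a median difference of 0.32, and 6 of the 7 lay above 0. *SLC22A18*, an organic cation transporter, read 0.73, 1.16 and 1.05 in PA HB and -0.15, 0.59 and 0.57 in IVV HB (log2 difference 0.65, SE 0.25, adjusted p = 0.11). Its PA HB arrays were all above its IVV HB arrays by a narrow margin. For *ATP10A*, a phospholipid flippase, the difference was 0.44, for *IGF2R*, which removes insulin-like growth factor 2, 0.34, for the long non-coding RNA *MEG3* 0.32, for the ubiquitin ligase *UBE3A* 0.19 and for *ASB4* 0.15, with adjusted p from 0.18 to 0.63. *PPP1R9A*, neurabin, which binds actin and protein phosphatase 1, went the other way (-0.44, adjusted p = 0.12). Their standard errors lay between 0.18 and 0.26. A doubled level corresponds to a difference of 1, which none of the 7 reached. Whether these genes are imprinted in pig blastocysts was not tested, so a doubling need not be expected.

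Of 49 X-linked housekeeping genes, 3 rose and 2 fell (10.2%, against 7.71% of all genes), and their median difference was 0.01, with 25 above 0. As the sex of the IVV HB embryos is not stated, a difference in sex cannot be told apart from one in parent of origin. *TCEAL8*, a small elongation factor-like gene, read -1.05, -0.72 and -0.54 in PA HB 1 to 3 and 0.75, 0.75 and 0.45 in IVV HB 1 to 3 and was 2.68-fold lower (log2 difference -1.42, SE 0.22, adjusted p = 0.003). All PA HB arrays lay below 0 and all IVV HB arrays above it. The deubiquitinase *USP9X*, which escapes X inactivation in humans, read -0.37, -0.33 and 0.01 in PA HB and -1.32, -1.38 and -1.25 in IVV HB (log2 difference 1.09, SE 0.19, adjusted p = 0.0053), with the groups 0.88 apart at their nearest arrays. *SSR4*, a subunit of the translocon-associated complex of the endoplasmic reticulum, was 2.6-fold higher (1.38, adjusted p = 0.019) and agreed over its 3 probes, the mRNA export subunit *THOC2* 2-fold higher and the transcriptional repressor *NKRF* 2.67-fold lower. Calls were lost for *USP9X* without PA HB 3 (a log2 size down to 0.97), *SSR4* without IVV HB 1 or PA HB 2 (adjusted p up to 0.059) and after quantile or scale normalization, *THOC2* without IVV HB 1 or 2 or PA HB 1 (adjusted p up to 0.066) and after quantile or scale normalization or with array weights and *NKRF* without IVV HB 1 (adjusted p up to 0.065) and after quantile or scale normalization. The 1 measured Y-linked symbol, *EIF1AY*, read 0.87, 0.82 and 0.82 in PA HB and 0.74, 0.56 and 1.54 in IVV HB (-0.11, adjusted p = 0.79). PA HB, which hold no Y chromosome, thus stood above IVV HB 1 and 2.

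**Figure D2:**
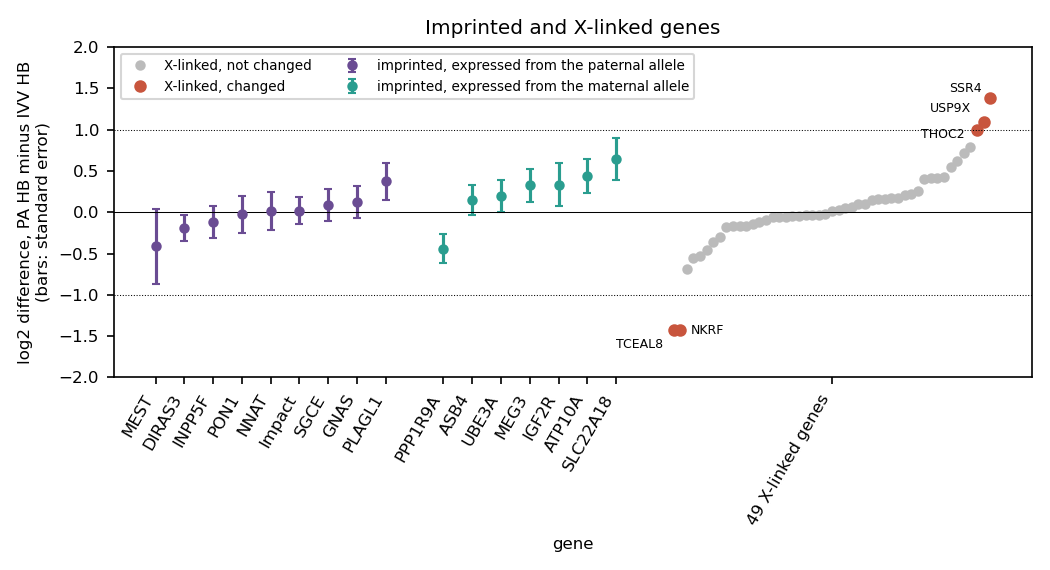
Log2 difference of PA HB minus IVV HB (vertical axis) for the 9 paternally and 7 maternally expressed imprinted genes, with standard errors, and for 49 X-linked genes in rank order without them (horizontal axis, genes). Dotted lines mark 2-fold: all 16 imprinted genes lie between the lines, and 5 X-linked genes lie on or beyond them.

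Genes of the embryonic lineages differed in single members. *GATA6*, the transcription factor that specifies hypoblast, read 2.19, 2.43 and 2.99 in PA HB 1 to 3 and 0.03, 0.89 and 0.53 in IVV HB 1 to 3 and was 4.16-fold higher (log2 difference 2.06, SE 0.26, adjusted p = 0.0017). Every PA HB array was at least 1.30 above the highest IVV HB array, IVV HB 2. *CITED1*, a transcriptional co-regulator in the same list of 14 hypoblast genes, was 2.3-fold higher (1.20, SE 0.23, adjusted p = 0.0077). The other 12 were not changed and included *APOA2* (-1.39, adjusted p = 0.12), *APOE* (-0.91), *FOXA2* (-0.64), *PDGFRA* (0.22) and the laminin *LAMB1* (0.84), and the list median was 0.21. Of 19 trophectoderm genes, *KRT18* and *WWTR1* fell and *KRT8* rose (15.8% changed, against 7.71% of all genes). *WWTR1*, which encodes TAZ, a Hippo pathway coactivator of TEAD factors, read -0.48, -1.12 and -1.25 in PA HB and 0.28, 0.63 and 0.17 in IVV HB and was 2.48-fold lower (log2 difference -1.31, SE 0.28, adjusted p = 0.014). Its PA HB arrays were all below 0 and its IVV HB arrays all above. The keratin partners *KRT18* (-1.12, SE 0.21, adjusted p = 0.0069) and *KRT8* (1.09, SE 0.26, adjusted p = 0.02) went in opposite directions in these values. The 2 probes of *KRT18* stood at -1.72 and -0.52, and a probe of *KRT8* stood at 0.95. By the study's QPCR, in contrast, both keratin genes were lower in PA HB than in IVV HB. *CDX2* (0.02) and *ELF5* (0.54), transcription factors of trophectoderm, were not changed. The call did not hold for *CITED1* after quantile or scale normalization, *WWTR1* without PA HB 2 (adjusted p up to 0.054), *KRT18* without IVV HB 3 (a log2 size down to 0.99) and *KRT8* without IVV HB 1 or 2 or PA HB 2 or 3 (adjusted p up to 0.083) and after quantile or scale normalization or with array weights.

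Among 12 genes of pluripotency and the inner cell mass, 0 were changed, and the smallest adjusted p was that of *DPPA5* (0.92, adjusted p = 0.053), a germ cell and epiblast RNA-binding protein that was far below the reference on all arrays. The lowest difference in the list was -0.57. The study, however, reported *NANOG* more than 2-fold lower in PA HB, and its QPCR detected *NANOG* in IVV HB but not in PA HB. The list covers only probes with a gene symbol, so it does not stand for all pluripotency genes. *POU5F1*, OCT4, read 0.05, 1.38 and 0.16 in PA HB and 0.80, 1.17 and 0.88 in IVV HB (log2 difference -0.42, SE 0.30, adjusted p = 0.38). Its 2 probes stood at -0.85 and 0.01. PA HB 2 was as high as the IVV HB arrays, and the other PA HB arrays were lower. *ZFP42* (-0.42), *GDF3* (0.66), *OTX2* (0.29) and *LIN28A* (0.54) overlapped between the groups too. Of 43 homeobox genes 5 were higher (11.6%, against 4.34% of all genes), *PBX2* and *POU3F1* with a profile probe and 3 without. *HOXB7*, a patterning gene of the trunk, read 1.72, 1.67 and 1.21 in PA HB 1 to 3 and -0.61, 0.08 and 0.48 in IVV HB 1 to 3 and was 2.93-fold higher (log2 difference 1.55, SE 0.27, adjusted p = 0.0052). *PDX1*, a pancreas and duodenum factor, read 1.42, 1.21 and 1.48 in PA HB and -0.20, 0.35 and -0.10 in IVV HB and was 2.55-fold higher (log2 difference 1.35, SE 0.21, adjusted p = 0.003), although its 2 probes differed, at 2.57 and 0.14. *POU1F1*, a pituitary factor, was 2.77-fold higher (1.47, SE 0.22, adjusted p = 0.003), a call that ended for *POU1F1* after quantile normalization. For all 3 the lowest PA HB array was above the highest IVV HB array. None of 32 SOX, FOX and KLF genes was changed, and *FOXN4* (-0.92, adjusted p = 0.016) had their smallest adjusted p.

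Among 15 genes that set, read or remove DNA methylation, 1 fell (6.7% changed, against 7.71% of all genes). This was *MBD3*, a methyl-CpG-binding domain protein of the NuRD complex, which read -0.27, -0.87 and -0.47 in PA HB 1 to 3 and 0.62, 0.99 and 1.33 in IVV HB 1 to 3 and was 2.87-fold lower (log2 difference -1.52, SE 0.27, adjusted p = 0.0055). Its highest PA HB array was 0.89 below its lowest IVV HB array. The maintenance methyltransferase *DNMT1*, an oocyte-rich transcript, read -3.12, -2.67 and -2.20 in PA HB and -4.09, -3.15 and -3.46 in IVV HB (log2 difference 0.90, SE 0.30, adjusted p = 0.066). Its groups did not overlap, yet it did not pass, and the differences of its 4 probes ranged from 0.44 to 1.25. The de novo methyltransferase *DNMT3B* (-0.19, adjusted p = 0.55), *UHRF1*, which recruits DNMT1 (0.21, adjusted p = 0.6), and the dioxygenases *TET1* (-0.29, adjusted p = 0.68) and *TET2* (0.01, adjusted p = 0.98), which oxidise methylated cytosine, did not pass either. None of 50 genes of histone methylation and demethylation and none of 17 Polycomb genes was changed, with list medians of -0.01 and -0.11. Their smallest adjusted p were those of *DPY30* (-0.76, adjusted p = 0.02), a subunit of the H3K4 methyltransferases, and of *CBX3* (-0.81, adjusted p = 0.019), HP1 gamma. *H2AFZ*, the histone variant H2A.Z, was 1 of 5 histone genes and the 1 that fell, 2.16-fold lower (-1.11, SE 0.30, adjusted p = 0.03). Its probes stood at -1.67 and -0.56. Of 39 genes of ATP-dependent remodellers 7.7% were changed, close to the 7.71% of all genes. Among them *SMARCE1*, a BAF subunit, rose (1.05) and the helicases *RUVBL1* (-1.09) and *SMARCAD1* (-1.24) fell. Of 42 genes listed by symbol under histone acetylation 9.5% were changed and 1 was lower. This was *NAA15* (-1.05), a subunit of the enzyme that acetylates the N termini of proteins. These calls were lost for *H2AFZ* without IVV HB 1 or PA HB 1, 2 or 3 (adjusted p up to 0.09) and after quantile or scale normalization, with array weights or in the fit of the 6 arrays alone, *SMARCE1* without IVV HB 1 or PA HB 3 (a log2 size down to 0.91) and after quantile or scale normalization, *RUVBL1* without IVV HB 1 or PA HB 2 (adjusted p up to 0.094) and after quantile or scale normalization, with array weights or in the fit of the 6 arrays alone, *SMARCAD1* without IVV HB 1 or PA HB 1 or 2 (adjusted p up to 0.083) and after quantile or scale normalization or with array weights and *NAA15* without IVV HB 1 or 3, PA HB 1, 2 or 3 or CT HB 1, 2 or 3 (adjusted p up to 0.13) and after quantile or scale normalization, after median centring, with array weights or in the fit of the 6 arrays alone.

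Of 27 genes of myosins, tropomyosins and their partners, 5 rose and 2 fell, that is 25.9% changed against 7.71% of all genes, while the list median was 0.06. *TPM4*, a tropomyosin of non-muscle actin filaments, read 1.99, 2.25 and 2.16 in PA HB 1 to 3 and 0.15, 0.25 and 0.64 in IVV HB 1 to 3 and was 3.44-fold higher (log2 difference 1.78, SE 0.26, adjusted p = 0.0027). *TAGLN*, transgelin, which crosslinks actin, read 1.99, 2.69 and 1.81 in PA HB and -0.44, 0.49 and -0.04 in IVV HB and was 4.47-fold higher (log2 difference 2.16, SE 0.38, adjusted p = 0.0053). *MYL7*, a regulatory light chain known from the atrium of the heart, read 1.89, 1.00 and 2.01 in PA HB and -0.16, 0.10 and 0.32 in IVV HB and was 2.92-fold higher (log2 difference 1.55, SE 0.31, adjusted p = 0.0091). For each of these 3 genes the lowest PA HB array was above the highest IVV HB array, with *TPM4* the most uniform across PA HB. The essential light chains *MYL6* (1.36) and *MYL6B* (1.16) rose as well, whereas the tropomyosin *TPM3* (-1.24) and the calponin *CNN3* (-1.26) fell. *TPM1* (-0.68), *MYL9* (0.10) and the non-muscle myosin heavy chain *MYH10* (0.01) were not changed. No call remained for *MYL6* without IVV HB 1 or 3 or PA HB 2 or 3 (adjusted p up to 0.089) and after quantile or scale normalization, *MYL6B* without IVV HB 1 or 2 or PA HB 2 (adjusted p up to 0.058), *TPM3* without IVV HB 1 or 3, PA HB 2 or 3 or CT HB 3 (adjusted p up to 0.14) and after quantile normalization or in the fit of the 6 arrays alone and *CNN3* without IVV HB 1, 2 or 3, PA HB 1 or 2 or CT HB 1, 2 or 3 (adjusted p up to 0.15) and after quantile or scale normalization, with array weights or in the fit of the 6 arrays alone.

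Among 51 genes of actin and its regulators, *CAPG*, a capping protein of the gelsolin family, read 2.05, 2.45 and 1.87 in PA HB 1 to 3 and 0.35, -0.22 and 0.81 in IVV HB 1 to 3 and was 3.51-fold higher (log2 difference 1.81, SE 0.25, adjusted p = 0.0023). *GSN*, gelsolin itself, which severs and caps filaments, was 2.18-fold lower (-1.12, SE 0.26, adjusted p = 0.019), the opposite direction to its relative. *PLS3*, plastin 3, which bundles filaments, read -2.38, -2.41 and -1.98 in PA HB and -4.25, -3.19 and -3.34 in IVV HB and was 2.52-fold higher (log2 difference 1.34, SE 0.27, adjusted p = 0.0097). All of its values were well below the reference. The smooth muscle actin *ACTG2* was 2.2-fold higher. Of 38 motor protein genes, 3 rose and 1 fell (10.5% changed, against 7.71% of all genes). *KIF5B*, the heavy chain of conventional kinesin, read -1.16, -1.59 and -0.95 in PA HB and 0.72, -0.36 and 0.11 in IVV HB and was 2.62-fold lower (log2 difference -1.39, SE 0.26, adjusted p = 0.0077), with both probes below -1.2. Its light chain *KLC2* was 2.64-fold higher (1.40, SE 0.21, adjusted p = 0.003). *DYNC2LI1*, a light intermediate chain of the dynein of cilia, read -3.96, -3.13 and -2.81 in PA HB and -6.10, -5.11 and -4.89 in IVV HB, far below the reference, and was 4.19-fold higher (log2 difference 2.07, SE 0.36, adjusted p = 0.0054). The kinesin *KIF21B* rose as well (1.03). Of 35 tubulin and tubulin cofactor genes, *TUBA1B* (-1.04), an alpha tubulin, and *CLIP1* (-1.11), which tracks growing microtubule ends, fell. In this group the call was lost for *GSN* without IVV HB 1 or PA HB 2 (adjusted p up to 0.082) and after quantile or scale normalization or with array weights, *ACTG2* without IVV HB 1 or PA HB 2 (adjusted p up to 0.086) and after quantile normalization, *KLC2* after quantile or scale normalization, *KIF21B* without IVV HB 1 or 3 or PA HB 2 (adjusted p up to 0.087) and after quantile or scale normalization or in the fit of the 6 arrays alone, *TUBA1B* without IVV HB 2 or PA HB 2 (a log2 size down to 0.86) and after quantile or scale normalization, after median centring or with array weights and *CLIP1* without IVV HB 1 or PA HB 1 (adjusted p up to 0.054) and after quantile or scale normalization.

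**Figure D3:**
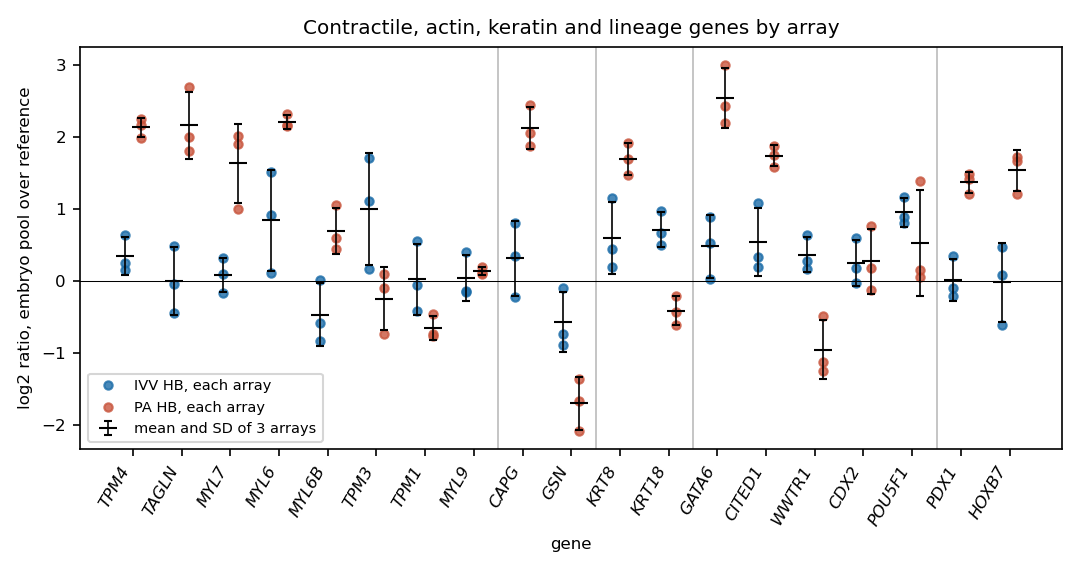
Log2 ratio of embryo pool over reference (vertical axis) on each array for genes of contractile filaments, actin capping, keratins, lineages and homeobox factors (horizontal axis); points are single arrays, bars the mean and SD of 3. *TPM4*, *TAGLN*, *CAPG* and *GATA6* lie higher on all PA HB arrays, *TPM3*, *GSN*, *KRT18* and *WWTR1* lower, and *CDX2* and *POU5F1* overlap.

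The epithelium of the blastocyst seals through tight junctions, and 0 of 24 genes of this class were changed (median -0.10). *OCLN*, occludin, read -0.28, -0.07 and 0.12 in PA HB and 0.51, 0.35 and 0.68 in IVV HB (log2 difference -0.59, SE 0.17, adjusted p = 0.041), below 2-fold although its groups did not overlap, and its 2 probes stood at -1.31 and 0.14. The smallest adjusted p of the list was that of *CLDN17* (-0.67, adjusted p = 0.039), also below 2-fold. The claudins, as means over their probes, ranged from -1.06 (*CLDN7*) to 0.18 (*CLDN6*), the 2 probes of *CLDN4* standing at -0.82 and 0.45, and *TJP1*, ZO-1, stood at 0.63. In desmosomes *PERP*, a tetraspan protein that they need in skin, read 1.39, 0.89 and 1.18 in PA HB 1 to 3 and -0.67, -0.30 and -0.04 in IVV HB 1 to 3 and was 2.8-fold higher (log2 difference 1.49, SE 0.20, adjusted p = 0.0019), all PA HB arrays being above 0 and all IVV HB arrays below. The plaque protein *PKP2* was 2.44-fold lower (-1.29, SE 0.37, adjusted p = 0.041), a call lost for *PKP2* without IVV HB 1 or 3, PA HB 2 or CT HB 1 (adjusted p up to 0.14) and after quantile normalization or in the fit of the 6 arrays alone. Among 38 genes of pumps and water channels, *AQP11*, an aquaporin of intracellular membranes, read -0.88, -1.12 and -1.16 in PA HB and 0.50, 0.34 and 0.99 in IVV HB and was 3.17-fold lower (log2 difference -1.66, SE 0.25, adjusted p = 0.003). *ATP6V1G2*, a G subunit of the vacuolar proton pump, read 1.54, 2.14 and 2.37 in PA HB and -0.34, 0.22 and 0.57 in IVV HB and was 3.64-fold higher (log2 difference 1.87, SE 0.28, adjusted p = 0.003). Both separated the groups on all arrays. *AQP3*, a water and glycerol channel, was at -0.69, below 2-fold. In the matrix 3 of 43 genes rose (7.0%, against 4.34% of all genes) and 0 fell. The thrombospondins *THBS4* (1.41, adjusted p = 0.011, up to 0.0502 without IVV HB 1) and *THBS3* (1.42, adjusted p = 0.041, up to 0.15 without IVV HB 1, 2 or 3, PA HB 2 or 3 or CT HB 1, 2 or 3) were higher.

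In membrane traffic, 4 of 73 SNARE, sorting nexin and ESCRT genes were higher and 5 lower (12.3% changed, against 7.71% of all genes). Of 71 coat, adaptor and tether genes 3 went each way (8.5% changed). *TRAPPC5* and *TRAPPC3*, subunits of the TRAPP complexes that tether vesicles at the Golgi, moved apart. *TRAPPC5* read 1.48, 1.36 and 2.03 in PA HB 1 to 3 and -0.73, -0.72 and 0.08 in IVV HB 1 to 3 and was 4.22-fold higher (log2 difference 2.08, SE 0.29, adjusted p = 0.0023). *TRAPPC3* read -2.15, -3.54 and -2.61 in PA HB and -1.24, -1.16 and -1.38 in IVV HB and was 2.83-fold lower (log2 difference -1.50, SE 0.29, adjusted p = 0.0082). *GOLGA4*, a golgin of the trans-Golgi, read -0.98, -2.48 and -1.12 in PA HB and 1.16, 0.07 and 0.12 in IVV HB and was 3.93-fold lower (log2 difference -1.97, SE 0.41, adjusted p = 0.011), with PA HB 2 the lowest, and *ARL1*, the GTPase that recruits this golgin, was 2.11-fold lower (-1.08, SE 0.21, adjusted p = 0.0087). Of the SNARE proteins *STX17*, which acts in the fusion of autophagosomes with lysosomes, was 2.99-fold higher (1.58, SE 0.26, adjusted p = 0.0044) and *VAMP5* 2.87-fold higher (1.52, SE 0.21, adjusted p = 0.0023). Of ESCRT, which pinches membranes off the cytosol, *CHMP4A* (-1.17, adjusted p = 0.0028), *CHMP2B* (-1.14, adjusted p = 0.044) and *VPS37A* (-1.08, adjusted p = 0.0071) fell. The retromer subunit *VPS26A* (-1.16, adjusted p = 0.032, up to 0.13 without IVV HB 1, 2 or 3 or PA HB 1 or 2) and the sorting nexin *SNX18* (-1.41, adjusted p = 0.033, up to 0.14 without IVV HB 1 or 3, PA HB 2 or 3 or CT HB 3) fell too. Among RAB genes *RAB14* fell (-1.11, adjusted p = 0.02, up to 0.078 without IVV HB 1 or 2 or PA HB 2), and *TBC1D19*, a likely RAB regulator, rose (1.00, adjusted p = 0.0053, size down to 0.94 without IVV HB 1 or 3 or PA HB 3). Calls were also lost for *TRAPPC3* after scale normalization, *ARL1* after quantile or scale normalization, *CHMP4A* after scale normalization, *CHMP2B* without IVV HB 1 or 3, PA HB 1, 2 or 3 or CT HB 3 (adjusted p up to 0.15) and after quantile or scale normalization or after median centring and *VPS37A* without PA HB 3 (a log2 size down to 0.92) and after scale normalization.

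Among 148 solute carriers of the plasma membrane and vesicles, 6 rose and 4 fell (6.8% changed, against 7.71% of all genes). *SLC5A9*, a sodium-coupled carrier of mannose and other sugars, read 2.18, 2.63 and 2.60 in PA HB 1 to 3 and -0.22, 0.48 and 0.07 in IVV HB 1 to 3 and was 5.14-fold higher (log2 difference 2.36, SE 0.29, adjusted p = 0.0017). *SLC29A3*, a nucleoside transporter of lysosomes, was 3.7-fold higher (1.89, SE 0.30, adjusted p = 0.0038) and *SLC10A1*, the bile acid carrier of hepatocytes, 2.46-fold higher (1.30, SE 0.23, adjusted p = 0.0056), with a correlation with the profile of 0.95. *SLC38A9*, the arginine sensor of the lysosome, was 2.43-fold lower (-1.28, SE 0.21, adjusted p = 0.0037). In all 4 the arrays of PA HB and IVV HB did not overlap. The amino acid carriers *SLC36A2* and *SLC3A1* held the extremes of the class, 17.4-fold higher (4.12, SE 0.52, adjusted p = 0.0017) and 4.51-fold lower (-2.17, SE 0.28, adjusted p = 0.0017). *SLC17A2*, a phosphate carrier, rose (1.24, adjusted p = 0.0025) and *SLC28A3*, a nucleoside carrier, fell (-1.05, adjusted p = 0.035, up to 0.15 without IVV HB 1 or 2 or PA HB 2 or 3). The calls of carriers were lost for *SLC29A3* after quantile normalization, *SLC38A9* after scale normalization and *SLC17A2* after quantile or scale normalization.

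Of 25 carriers of the inner mitochondrial membrane 3 fell and 0 rose. *SLC25A12*, the aspartate-glutamate carrier, read -0.75, -1.30 and -1.41 in PA HB 1 to 3 and 0.99, -0.21 and 0.28 in IVV HB 1 to 3 and was 2.84-fold lower (log2 difference -1.51, SE 0.31, adjusted p = 0.011). *SLC25A4*, an ADP/ATP carrier, read -1.30, -1.45 and -0.75 in PA HB and 0.59, -0.18 and -0.11 in IVV HB and was 2.4-fold lower (log2 difference -1.26, SE 0.25, adjusted p = 0.0096). The pyrimidine nucleotide carrier *SLC25A33* was 2.8-fold lower (-1.48, SE 0.19, adjusted p = 0.0017). In each, all PA HB arrays lay below all IVV HB arrays. Of 38 genes of protein import and quality control in mitochondria, 4 fell and 2 rose (15.8% changed, against 7.71% of all genes), and the median was -0.31. The chaperones *HSPA9* (-1.28, adjusted p = 0.0053) and *HSPE1* (-1.07, adjusted p = 0.012), the import co-chaperone *DNAJC19* (-1.14, adjusted p = 0.012) and the protease *LONP1* (-1.08, adjusted p = 0.022) were the lower ones. *TOMM20L*, a relative of an import receptor, rose (1.11, adjusted p = 0.013, up to 0.063 without IVV HB 1 or PA HB 2). Calls ended for *SLC25A33* after scale normalization, *HSPA9* after scale normalization, *HSPE1* without IVV HB 1 (adjusted p up to 0.058) and after quantile or scale normalization or with array weights, *DNAJC19* without IVV HB 1 (a log2 size down to 0.84) and after scale normalization and *LONP1* without IVV HB 2 or 3 or PA HB 2 or 3 (adjusted p up to 0.06) and after quantile or scale normalization.

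*LDHB*, the lactate dehydrogenase subunit of oxidative tissues, read -1.05, -1.78 and -1.07 in PA HB 1 to 3 and 0.97, 0.21 and 0.06 in IVV HB 1 to 3 and was 3.28-fold lower (log2 difference -1.72, SE 0.27, adjusted p = 0.0032), with probes at -2.69 and -0.74. *IDH3A*, the catalytic subunit of NAD-dependent isocitrate dehydrogenase, read -1.16, -1.42 and -1.22 in PA HB and 0.80, 0.04 and -0.41 in IVV HB and was 2.66-fold lower (log2 difference -1.41, SE 0.27, adjusted p = 0.0077). In both, IVV HB 1 was the highest array and the groups did not overlap. Citric acid cycle genes counted 3 lower of 21 in all (14.3%, against 3.38% of all genes), with *SUCLA2* (-1.57, adjusted p = 0.033) and *SDHB* (-1.08, adjusted p = 0.023), and a median of 0.08. *SLC2A1*, the glucose transporter GLUT1, was 2.01-fold lower (-1.01, SE 0.20, adjusted p = 0.0088) and *GAPDH*, often taken as a constant reference gene, 2.69-fold higher (1.43, SE 0.36, adjusted p = 0.023). Of this group the call ended for *SUCLA2* without IVV HB 1 or PA HB 2 or 3 (adjusted p up to 0.13) and after quantile or scale normalization or in the fit of the 6 arrays alone, *SDHB* without IVV HB 1 or 3 or PA HB 2 or 3 (adjusted p up to 0.085) and after quantile or scale normalization, *SLC2A1* without IVV HB 1 or 3 or PA HB 3 (a log2 size down to 0.83) and after median centring and *GAPDH* without IVV HB 1 or 2 or PA HB 2 or 3 (adjusted p up to 0.09) and after quantile normalization.

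Lipid and nucleotide metabolism had few changed genes too. *PNPLA2*, the triglyceride lipase that opens lipid droplets, read 1.51, 1.06 and 2.18 in PA HB and -0.78, -0.49 and -0.24 in IVV HB and was 4.25-fold higher (log2 difference 2.09, SE 0.29, adjusted p = 0.0023). The acyl-CoA synthetase *ACSL6* was 2.17-fold lower (-1.12, SE 0.22, adjusted p = 0.0086) and *CPT1A*, which admits acyl groups to mitochondria, 2.01-fold lower (-1.01, SE 0.27, adjusted p = 0.029). *DGAT2* (0.53), which makes triglycerides, was not changed. Of 23 sterol genes (4.3% changed, against 7.71% of all genes) *LRPAP1*, a chaperone of lipoprotein receptors, fell (-2.73, adjusted p = 0.0071). *HSD11B2*, which inactivates glucocorticoids, rose (2.68, adjusted p = 0.0019), *PTGES3*, the co-chaperone p23, fell (-1.68, adjusted p = 0.0017), and *PLA2G16*, a phospholipase, rose (1.26, adjusted p = 0.013, up to 0.065 without IVV HB 1 or PA HB 2), with probes at 2.33 and 0.19. In purine and deoxynucleotide synthesis *IMPDH2* (-1.20, adjusted p = 0.0086, size down to 0.96 without PA HB 2) and *NME2* (-1.20, adjusted p = 0.018, up to 0.079 without IVV HB 1 or PA HB 2) fell and *RRM2B* rose (1.00, adjusted p = 0.02, up to 0.065 without IVV HB 1 or PA HB 1 or 3). Of 23 aminoacyl-tRNA synthetases, *NARS* for asparagine read 3.14, 2.46 and 3.30 in PA HB and 0.50, 1.60 and 0.95 in IVV HB and was 3.87-fold higher (log2 difference 1.95, SE 0.31, adjusted p = 0.0037), with no overlap of the groups, and *RARS* for arginine fell (-1.05, adjusted p = 0.028, up to 0.12 without IVV HB 1 or 2 or PA HB 2). Calls ended as well for *ACSL6* without IVV HB 1 (a log2 size down to 0.88), *CPT1A* without IVV HB 1 or PA HB 2 or 3 (adjusted p up to 0.096) and after quantile or scale normalization, after median centring, with array weights or in the fit of the 6 arrays alone and *NARS* after quantile normalization.

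Of 44 genes of glutathione, thioredoxin and peroxiredoxin, 4 rose and 4 fell (18.2% changed, against 7.71% of all genes). *TXNIP*, which binds and inhibits thioredoxin and limits glucose uptake, read 1.59, 0.90 and 0.69 in PA HB 1 to 3 and -0.46, -0.26 and -0.02 in IVV HB 1 to 3 and was 2.47-fold higher (log2 difference 1.31, SE 0.26, adjusted p = 0.0098). PA HB 1 was the highest array and IVV HB 1 the lowest. *TXNDC5*, a disulphide isomerase of the endoplasmic reticulum, read 1.55, 2.43 and 1.96 in PA HB and -0.51, 0.38 and 0.11 in IVV HB and was 3.97-fold higher (log2 difference 1.99, SE 0.38, adjusted p = 0.0079). The peroxidase *PRDX1* was 2.9-fold lower (-1.54, SE 0.33, adjusted p = 0.014) and its relatives *PRDX3* (0.39) and *PRDX2* (0.42) were not changed. The enzymes of glutathione synthesis moved apart, with glutathione synthetase *GSS* higher (1.08, adjusted p = 0.0081) and the modifier subunit of glutamate-cysteine ligase *GCLM* (-1.13, adjusted p = 0.017) and *CTH*, which makes cysteine (-2.02, adjusted p = 0.031), lower. The glutathione peroxidase *GPX1* rose (1.26, adjusted p = 0.028). The fourth lower gene, *GLRX3*, encodes a glutaredoxin (-1.04, adjusted p = 0.045, up to 0.18 without IVV HB 1 or 3, PA HB 1, 2 or 3 or CT HB 1 or 3). The remaining calls were lost for *TXNDC5* after quantile normalization, *PRDX1* without IVV HB 1 or PA HB 2 (adjusted p up to 0.065) and after scale normalization, *GSS* without IVV HB 1 or PA HB 1 (a log2 size down to 0.90) and after quantile or scale normalization or with array weights, *GCLM* without IVV HB 1 or PA HB 3 (adjusted p up to 0.067) and after quantile or scale normalization, *CTH* without IVV HB 1 or PA HB 2 or 3 (adjusted p up to 0.095) and after quantile or scale normalization, with array weights or in the fit of the 6 arrays alone and *GPX1* without IVV HB 1 or PA HB 1 or 3 (adjusted p up to 0.11) and after quantile or scale normalization or with array weights.

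Genes of transport through the nuclear pore were lower in a few central members. *RAN*, the GTPase that gives import and export their direction, read -0.99, -1.93 and -1.11 in PA HB 1 to 3 and 0.90, 0.38 and 0.33 in IVV HB 1 to 3 and was 3.67-fold lower (log2 difference -1.88, SE 0.30, adjusted p = 0.0035), with both probes lower. *XPO4*, an exportin, read -1.59, -1.94 and -1.59 in PA HB and 0.27, -0.25 and 0.27 in IVV HB and was 3.49-fold lower (log2 difference -1.80, SE 0.22, adjusted p = 0.0017). Every PA HB array of these 2 genes was below -0.9 and every IVV HB array above -0.3. *KPNB1*, importin beta, was 2.48-fold lower (-1.31, SE 0.32, adjusted p = 0.021) and the pore protein *NUP50* 2.16-fold lower (-1.11, SE 0.19, adjusted p = 0.0053). These were the 4 lower genes of 40, 1 other gene (*RANBP9*, with a profile probe) was higher, and the median was -0.23. Changed genes thus made up 12.5% of the list, against 7.71% of all genes. *IPO5* (0.52) and *IPO9* (0.75) lay on the higher side without passing. The call was lost for *KPNB1* without IVV HB 1 or PA HB 2 (adjusted p up to 0.094) and *NUP50* without PA HB 2 (a log2 size down to 0.97) and after quantile or scale normalization.

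Of 47 subunits of RNA polymerases and general transcription factors, 6 fell and 1 rose, 14.9% against 7.71% of all genes. RNA polymerase III, which makes transfer RNA and 5S ribosomal RNA, had 3 of 7 measured subunits lower, where 3.38% of all genes were lower. *POLR3E* read -1.43, -2.16 and -1.35 in PA HB 1 to 3 and -0.19, 0.03 and -0.10 in IVV HB 1 to 3 and was 2.94-fold lower (log2 difference -1.56, SE 0.22, adjusted p = 0.0023). *POLR3D* read -2.31, -2.50 and -2.28 in PA HB and -0.96, -1.24 and -1.01 in IVV HB and was 2.45-fold lower (log2 difference -1.29, SE 0.19, adjusted p = 0.0027). *POLR3C* was 2.29-fold lower (-1.20, SE 0.30, adjusted p = 0.024), with PA HB 2 the lowest array. The remaining subunits stood at -0.81 (*POLR3GL*), -0.58 (*POLR3B*), 0.03 (*POLR3F*) and 0.15 (*POLR3A*), the last of which belongs to the catalytic core. TFIIH, which opens promoters for RNA polymerase II, had 3 of 8 measured subunits lower, both sets of subunits being gathered after their values were seen. *CCNH*, the cyclin of its kinase module, which was counted with the cyclins and not among the 47, read -1.81, -2.41 and -1.37 in PA HB and 0.08, -0.58 and -0.40 in IVV HB and was 2.95-fold lower (log2 difference -1.56, SE 0.27, adjusted p = 0.0053). *GTF2H3* (-1.49, adjusted p = 0.015) and *GTF2H1* (-1.09, adjusted p = 0.017) of the core were lower too, whereas the kinase *CDK7* (0.01) and the helicase *ERCC3* (0.01) were close to 0. The gene that rose was *SUPT3H*, a SAGA subunit, which read 0.90, 1.04 and 1.08 in PA HB and -0.83, -0.31 and -0.46 in IVV HB and was 2.91-fold higher (log2 difference 1.54, SE 0.19, adjusted p = 0.0017). *TAF11*, a TFIID subunit that is left out of the plot, fell as well (-1.04, adjusted p = 0.0083, size down to 0.88 without IVV HB 1 or PA HB 2). The Mediator subunit *MED1*, a coactivator of nuclear receptors, rose (1.38, adjusted p = 0.032, up to 0.14 without IVV HB 1 or PA HB 2 or 3). Calls ended further for *POLR3D* after scale normalization, *POLR3C* without IVV HB 1, 2 or 3 or PA HB 2 (adjusted p up to 0.092) and after quantile or scale normalization, *GTF2H3* without IVV HB 1 or 3 (adjusted p up to 0.065) and *GTF2H1* without IVV HB 1 or PA HB 2 (adjusted p up to 0.074) and after quantile normalization.

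**Figure D4:**
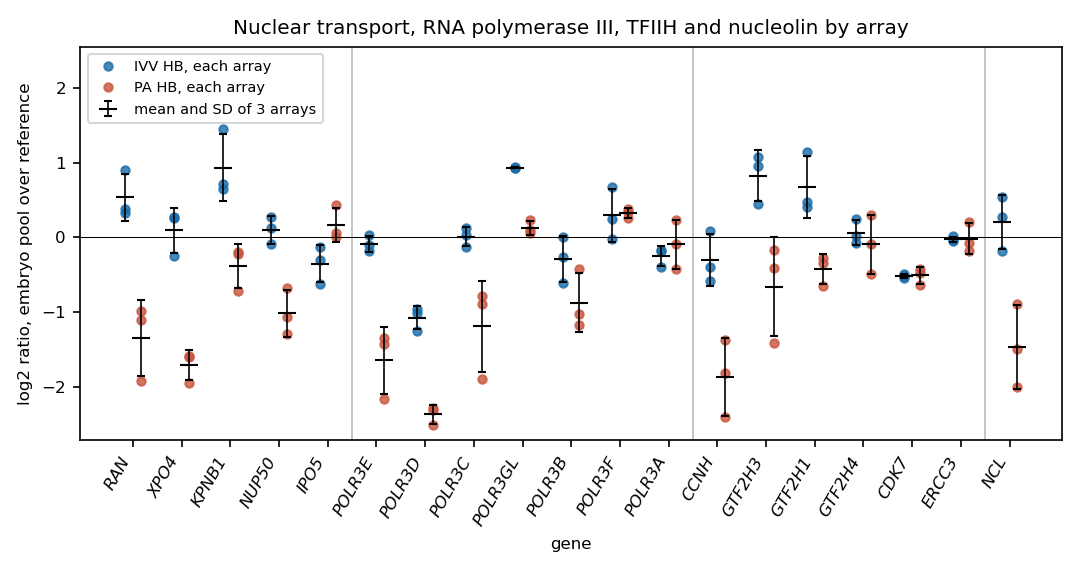
Log2 ratio of embryo pool over reference (vertical axis) on each array for genes of nuclear transport, RNA polymerase III, TFIIH and nucleolin (horizontal axis); points are single arrays, bars the mean and SD of 3. *RAN*, *XPO4*, *POLR3E*, *POLR3D*, *CCNH* and *NCL* lie lower on all PA HB arrays, whereas *POLR3A*, *CDK7* and *ERCC3* overlap.

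In the nucleolus, *NCL*, nucleolin, read -1.49, -2.01 and -0.89 in PA HB 1 to 3 and 0.54, -0.18 and 0.28 in IVV HB 1 to 3 and was 3.19-fold lower (log2 difference -1.67, SE 0.27, adjusted p = 0.0042). PA HB 2 was the lowest array and IVV HB 1 the highest. Of 51 genes of ribosome assembly 4 fell and 3 rose (13.7% changed, against 7.71% of all genes). The scaffold *NOLC1* was lower (-1.09, adjusted p = 0.0053) and *BYSL* (1.26, adjusted p = 0.004), a factor of the small subunit, and *NHP2* (1.25, adjusted p = 0.0056), a core protein of H/ACA particles, were higher. Of the other lower genes, *UTP20* (-1.11, adjusted p = 0.016, up to 0.072 without IVV HB 1 or PA HB 2) and *UTP3* (-1.04, adjusted p = 0.046, up to 0.19 without IVV HB 1, 2 or 3, PA HB 2 or CT HB 1, 2 or 3) are processome subunits. Of 59 genes of mRNA decay, 5 rose and 3 fell (13.6% changed). *DIS3L*, a cytoplasmic exosome nuclease, was 4.89-fold lower (-2.29, SE 0.36, adjusted p = 0.0036), and *XRN2*, a nuclear 5′ exonuclease, fell too (-1.20, adjusted p = 0.021, up to 0.096 without IVV HB 1 or 3 or PA HB 2 or 3), as did *EDC4*, a decapping scaffold (-1.01, adjusted p = 0.03, up to 0.13 without IVV HB 1 or 3 or PA HB 2 or 3). *ZFP36L1*, which binds AU-rich elements and triggers decay, was 2.34-fold higher (1.23, SE 0.21, adjusted p = 0.0053), and the decapping cofactor *DCP1B* 2.23-fold higher (1.16, SE 0.24, adjusted p = 0.01). *LSM11*, which processes histone mRNA, was 2.53-fold higher (1.34, SE 0.28, adjusted p = 0.012), and *CNOT4*, a ligase of the deadenylase complex, rose (1.00, adjusted p = 0.015, up to 0.068 without IVV HB 1 or 3 or PA HB 1 or 2). Of 37 DEAD-box and DEAH-box helicases, *EIF4A3* of the exon junction complex (-1.42, adjusted p = 0.0096) and *DDX39B* of mRNA export (-1.44, adjusted p = 0.043, up to 0.17 without IVV HB 1 or 3, PA HB 2 or 3 or CT HB 1, 2 or 3) fell. In this group calls were lost for *NOLC1* without IVV HB 1 (a log2 size down to 0.94) and after quantile or scale normalization, *BYSL* after quantile or scale normalization, *NHP2* after quantile or scale normalization, *ZFP36L1* after quantile or scale normalization, *DCP1B* without PA HB 2 (a log2 size down to 0.97), *LSM11* without IVV HB 1 (adjusted p up to 0.057) and *EIF4A3* after scale normalization.

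Of the 25 microRNA genes with a symbol here 0 were changed, from -0.42 for *MIR28* to 0.62 for *MIRLET7I*, which had an adjusted p of 0.045. The study, in contrast, reported several precursor microRNAs as significantly higher in PA HB. Whether those are among the genes counted here is not given. The list covers only probes with a gene symbol, so it does not stand for all microRNA genes. *DGCR8*, which binds primary microRNA transcripts for their cutting, lay just under 2-fold (-1.0, adjusted p = 0.018), and *DICER1*, which makes mature microRNAs, stood at 0.16. *AGO1*, named above, was the 1 gene of microRNA function that was called.

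Cell cycle genes changed in single members. *CDC20*, the activator of the anaphase-promoting complex, read 2.08, 2.47 and 1.77 in PA HB 1 to 3 and 0.22, 0.77 and 0.18 in IVV HB 1 to 3 and was 3.28-fold higher (log2 difference 1.72, SE 0.22, adjusted p = 0.0017). The nearest arrays of both groups were 1.00 apart. *GINS1*, a subunit of the replicative helicase, read -0.53, -0.31 and -0.16 in PA HB and 0.85, 0.59 and 1.16 in IVV HB and was 2.3-fold lower (log2 difference -1.20, SE 0.18, adjusted p = 0.003), all PA HB arrays being below 0 and all IVV HB arrays above. The transcription-linked kinase *CDK12* was 2.65-fold higher (1.41, SE 0.21, adjusted p = 0.003). Of 64 mitosis genes 3 rose and 2 fell (7.8% changed, against 7.71% of all genes). Among these *CENPF* (1.16, adjusted p = 0.0081) of the kinetochore was higher and *NUF2* (-1.16, adjusted p = 0.03), also of the kinetochore, lower. *CDCA3*, a trigger of mitotic entry, fell (-1.05, adjusted p = 0.0095, size down to 0.88 without IVV HB 1 or PA HB 2) and *CDCA7* rose (1.52, adjusted p = 0.025, up to 0.11 without IVV HB 1 or 3 or PA HB 2 or 3). In replication *RNASEH2C*, of the nuclease that removes ribonucleotides from DNA, rose (2.55, adjusted p = 0.0033). No member of 19 cohesin and condensin genes changed, and the smallest adjusted p was that of *NCAPH2* (0.42, adjusted p = 0.11). In DNA repair the glycosylase *NTHL1* (-1.04, adjusted p = 0.0042) and the recombination factor *RAD51C* (-1.12, adjusted p = 0.019) fell, and the 3 higher genes of 59 all held a profile probe. Changed genes made up 8.5% of the 59, against 7.71% of all genes. The call did not remain for *CDK12* after quantile or scale normalization, *CENPF* without IVV HB 1 (a log2 size down to 0.92) and after quantile or scale normalization, *NUF2* without IVV HB 1 or 2 or PA HB 2 or 3 (adjusted p up to 0.13) and after scale normalization or with array weights, *NTHL1* without IVV HB 1 (a log2 size down to 0.93) and after quantile or scale normalization or after median centring and *RAD51C* without IVV HB 1 or 3 or PA HB 1 or 2 (adjusted p up to 0.082) and after quantile or scale normalization.

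Of 49 genes of MAP kinases, RAS and their phosphatases 1 rose and 3 fell, 8.2% against 7.71% of all genes. *GRB2*, which links receptors to RAS, read -0.61, -0.76 and -1.39 in PA HB 1 to 3 and 1.12, 0.60 and 1.30 in IVV HB 1 to 3 and was 3.8-fold lower (log2 difference -1.93, SE 0.26, adjusted p = 0.002). *RASA2*, which switches RAS off, read -0.90, -0.83 and -1.23 in PA HB and -0.13, 0.32 and 0.79 in IVV HB and was 2.48-fold lower (log2 difference -1.31, SE 0.23, adjusted p = 0.0055). For both, each PA HB array was below -0.6 and each IVV HB array above -0.2. *FOSL1*, a FOS-related subunit of AP-1 and a late target of the pathway, read 2.60, 2.57 and 2.34 in PA HB and 0.45, 1.16 and 0.60 in IVV HB and was 3.41-fold higher (log2 difference 1.77, SE 0.20, adjusted p = 0.0014). *FGFR1* was 2.08-fold higher (1.06, SE 0.16, adjusted p = 0.0031), whereas *FGFR2* (0.20) and *FGF2* (0.32) were not changed. The call was lost for *FOSL1* after quantile normalization and *FGFR1* without IVV HB 1 or PA HB 2 (a log2 size down to 0.98) and after quantile or scale normalization. *MAPKAPK2*, a stress-activated kinase downstream of p38, fell (-2.11, adjusted p = 0.0071). *INPP5D*, SHIP1, which removes a phosphate from PIP3 downstream of PI3 kinase, read 1.93, 2.16 and 1.13 in PA HB and -0.33, -0.78 and -0.06 in IVV HB and was 4.37-fold higher (log2 difference 2.13, SE 0.30, adjusted p = 0.0023).

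Casein kinase 1 alpha, *CSNK1A1*, which primes beta-catenin for destruction, was measured by 7 probes, from -1.92 to -0.57, and read -0.88, -0.91 and -0.78 in PA HB 1 to 3 and 0.83, 0.05 and 0.41 in IVV HB 1 to 3, 2.44-fold lower (log2 difference -1.29, SE 0.22, adjusted p = 0.0044). It was the 1 lower gene of 30 in the WNT pathway (6.7% changed, against 7.71% of all genes). The regulatory phosphatase subunit *PPP2R5C* of PP2A read -1.0, -0.89 and -0.85 in PA HB and 0.37, 0.28 and 0.47 in IVV HB and was 2.44-fold lower (log2 difference -1.29, SE 0.17, adjusted p = 0.0017), and *ANP32B*, an acidic chaperone that was listed with phosphatase inhibitors, was 2.43-fold lower (-1.28, SE 0.26, adjusted p = 0.0097). Both groups of arrays were tight for *PPP2R5C*, with SDs of 0.08 in PA HB and 0.10 in IVV HB. The 14-3-3 proteins differed among themselves: *YWHAE* fell (-1.10, adjusted p = 0.0055), *YWHAQ* rose (1.12, adjusted p = 0.022) and *YWHAZ* (-0.49) and *YWHAB* (-0.28) were not changed. Calls ended for *YWHAE* without IVV HB 1 or PA HB 2 (a log2 size down to 0.99) and *YWHAQ* without IVV HB 1 or PA HB 2 or 3 (adjusted p up to 0.089) and after quantile or scale normalization or in the fit of the 6 arrays alone. Of 43 genes of TGF-beta, activin and BMP signalling, *GDF9*, a growth factor of the oocyte, was the 1 that changed (2.3%, against 7.71% of all genes).

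Among cytokine genes, *IL6*, interleukin 6, read 0.33, 0.23 and 0.06 in PA HB 1 to 3 and -0.53, -1.21 and -1.43 in IVV HB 1 to 3 and was 2.4-fold higher (log2 difference 1.26, SE 0.24, adjusted p = 0.0077). The lowest PA HB array was 0.59 above the highest IVV HB array, IVV HB 1. The other 2 higher interleukin genes of 38, *IL12A* and *IL27RA*, held a profile probe. Higher genes made up 7.9% of the 38, against 4.34% of all genes. *NFKBIA*, the inhibitor that NF-kappaB itself induces, read 1.03, 2.86 and 2.55 in PA HB and -0.11, 0.53 and 0.53 in IVV HB and was 3.56-fold higher (log2 difference 1.83, SE 0.42, adjusted p = 0.017), with a correlation with the profile of 0.95. PA HB 1 stood near the IVV HB arrays. The call ended for *NFKBIA* without IVV HB 1 or PA HB 2 or 3 (adjusted p up to 0.075) and after quantile or scale normalization. *TFPI2*, an inhibitor of coagulation and matrix proteases, read -2.45, -1.80 and -1.33 in PA HB and -4.18, -3.07 and -3.32 in IVV HB and was 3.16-fold higher (log2 difference 1.66, SE 0.31, adjusted p = 0.0074), below the reference throughout. Of the remaining immune genes *CD70*, a ligand of the TNF family, rose (2.38, adjusted p = 0.0019), and so did the chemokine *CCL22* (1.29, adjusted p = 0.04, up to 0.11 without IVV HB 1, 2 or 3, PA HB 1 or 2 or CT HB 1, 2 or 3), *TRIM36* (1.07, adjusted p = 0.01, size down to 0.86 without IVV HB 1 or PA HB 1) and *F2*, prothrombin (1.11, adjusted p = 0.035, up to 0.11 without IVV HB 1, PA HB 2 or 3 or CT HB 1 or 3), whereas *TRIM45* fell (-1.06, adjusted p = 0.014, up to 0.066 without IVV HB 1 or 3).

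In the endoplasmic reticulum 5 of 56 genes rose and 4 fell (16.1% changed, against 7.71% of all genes). The lectin chaperone *CANX*, calnexin, read -0.22, -1.03 and -0.16 in PA HB 1 to 3 and 0.95, 0.43 and 1.06 in IVV HB 1 to 3 and was 2.44-fold lower (log2 difference -1.29, SE 0.27, adjusted p = 0.011). *DNAJB11*, a co-chaperone of BiP, read -0.54, -1.31 and -0.94 in PA HB and 0.32, 0.74 and 1.10 in IVV HB and was 3.14-fold lower (log2 difference -1.65, SE 0.25, adjusted p = 0.003). The oligosaccharyltransferase genes moved apart, *OSTC* lower (-1.40, adjusted p = 0.0057) and *DAD1* higher (1.09, adjusted p = 0.0046), and *OS9*, a lectin that marks misfolded proteins for export, was 2.52-fold higher (1.33, SE 0.21, adjusted p = 0.0037). *SDF2L1*, a component of a chaperone complex there, fell (-1.48, adjusted p = 0.0098). In ubiquitin pathways *RNF7*, the RING subunit of cullin ligases, read -1.71, -1.38 and -1.13 in PA HB and 0.14, 0.26 and -0.07 in IVV HB and was 2.87-fold lower (log2 difference -1.52, SE 0.23, adjusted p = 0.003). *USP2*, a deubiquitinase that was far below the reference, read -2.79, -1.34 and -1.89 in PA HB and -4.09, -3.48 and -3.30 in IVV HB and was 3.07-fold higher (log2 difference 1.62, SE 0.32, adjusted p = 0.0097), and *USP19* was 3.09-fold lower (-1.63, SE 0.36, adjusted p = 0.015). Of 122 ubiquitin ligase genes 4 fell and 3 rose (5.7% changed), all 3 with a profile probe, and of 45 deubiquitinase genes 4 rose and 3 fell (15.6% changed). The other lower ligases were *RNF25* (-1.24, adjusted p = 0.012), *RNF130* (-1.21, adjusted p = 0.016, up to 0.073 without IVV HB 1 or PA HB 2 or 3) and *RNF138* (-1.20, adjusted p = 0.029, up to 0.11 without IVV HB 1, 2 or 3 or PA HB 2). *PSMD14*, the deubiquitinase of the proteasome lid, fell (-1.10, adjusted p = 0.0043), as did *EIF3H*, a related subunit of an initiation factor (-1.14, adjusted p = 0.016, up to 0.064 without IVV HB 1 or 2 or PA HB 2), and the ubiquitin-like *UBL3* (-1.01, adjusted p = 0.013, size down to 0.78 without IVV HB 2 or 3 or PA HB 2), and *USP3* rose (1.15, adjusted p = 0.01, up to 0.051 without IVV HB 1). Calls ended for *OSTC* after scale normalization, *DAD1* without IVV HB 1 or PA HB 2 (a log2 size down to 0.99) and after quantile or scale normalization, *OS9* after quantile normalization, *SDF2L1* after scale normalization, *USP19* without IVV HB 1 or 3 or PA HB 2 or 3 (adjusted p up to 0.067), *RNF25* after scale normalization and *PSMD14* after quantile or scale normalization.

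Transcripts stored by the oocyte were the family with the most higher members, 10 of 33 against 4.34% of all genes, with 0 lower. Their median level was -1.47, -1.01 and -0.94 in PA HB 1 to 3 and -2.35, -1.61 and -1.75 in IVV HB 1 to 3, so that they were poorer in every pool than in the reference, and 24 of the 33 lay below 0 on all 6 arrays. IVV HB 1 was the lowest array for 21 of them. *FIGLA*, a germ cell transcription factor, read 0.69, 0.94 and 0.98 in PA HB 1 to 3 and -1.07, -0.70 and -0.51 in IVV HB 1 to 3 and was 3.1-fold higher (log2 difference 1.63, SE 0.20, adjusted p = 0.0017), the 1 of the 10 above 0 in PA HB. *MOS*, the kinase that holds the egg in metaphase, read -4.63, -4.72 and -4.26 in PA HB and -6.61, -5.30 and -5.61 in IVV HB (log2 difference 1.30, SE 0.31, adjusted p = 0.02). The growth factor *GDF9* read -1.47, -0.99 and -0.89 in PA HB and -2.92, -2.04 and -2.05 in IVV HB (log2 difference 1.22, SE 0.28, adjusted p = 0.017). *ZP4*, a zona pellucida protein, was 2.24-fold higher (1.17, SE 0.27, adjusted p = 0.019) and *ACCSL* 2.88-fold higher (1.53, SE 0.31, adjusted p = 0.0099). *NLRP4* (1.22, adjusted p = 0.026, up to 0.12 without IVV HB 1 or 3 or PA HB 2 or 3), *ZAR1* (1.30, adjusted p = 0.034, up to 0.14 without IVV HB 1 or 3, PA HB 2 or 3 or CT HB 3) and *BTG4* (1.35, adjusted p = 0.047, up to 0.18 without IVV HB 1 or 3, PA HB 2 or 3 or CT HB 1, 2 or 3), which clears maternal mRNA, were higher too, and *OOEP* and *ZP3* held a profile probe. The call was lost for *MOS* without IVV HB 1 or PA HB 3 (adjusted p up to 0.065) and after quantile normalization, *GDF9* without IVV HB 1 or PA HB 2 or 3 (adjusted p up to 0.065), *ZP4* without IVV HB 1 or PA HB 2 or 3 (adjusted p up to 0.065) and after quantile normalization and *ACCSL* after quantile normalization. Their correlation with the profile over the 9 arrays was 0.85 for *FIGLA*, 0.89 for *MOS*, 0.96 for *GDF9*, 0.94 for *ZP4* and 0.93 for *ACCSL*.

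Genes were also sorted by their level in CT HB, which enters neither group, in classes set after the data were seen. Of 208 genes with a CT HB mean below -2, far under the reference, 33 rose (15.9%) and 1 fell, and their median difference was 0.54. Of the 6623 genes between -1 and 1, 3.62% rose and 3.38% fell, with a median of 0.00. Of 140 genes between 1 and 2, 30 rose and 5 fell, and of 20 at 2 or above, 7 rose and 0 fell. Several genes named above for another role belong to the first class, among them *PLS3*, *DYNC2LI1*, *TFPI2*, *USP2* and *DNMT1*.

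Markers of other cells were looked for as well. Of 14 cumulus and granulosa cell markers and 19 sperm and testis markers 0 were changed, with the smallest adjusted p for *FST* (0.82, adjusted p = 0.015) and *TEX101* (0.93, adjusted p = 0.028), and the median level of the first list lay between -0.19 and 0.11 in PA HB and between -0.20 and 0.01 in IVV HB. Of 8 fibroblast markers *TAGLN* and *VIM* were higher, with a median difference of 0.12 for the list and median levels of 0.05 to 0.15 in PA HB against -0.36 to -0.08 in IVV HB. *VIM*, vimentin, read -3.19, -3.17 and -2.52 in PA HB and -4.83, -3.89 and -3.79 in IVV HB (log2 difference 1.21, SE 0.29, adjusted p = 0.02), low against the reference in every pool, a call that ended for *VIM* without IVV HB 1 or PA HB 3 (adjusted p up to 0.073) and after quantile normalization. Of 16 leukocyte markers *AIF1* and the granule protease *GZMA* were higher (12.5%, against 4.34% of all genes). Median levels of the list were 0.12 to 0.24 in PA HB and -0.14 to 0.07 in IVV HB. *GZMA* read -1.96, -1.40 and -1.30 in PA HB and -3.56, -2.21 and -2.24 in IVV HB (log2 difference 1.11, SE 0.33, adjusted p = 0.046), a call that ended for *GZMA* without IVV HB 1 or 3, PA HB 2 or 3 or CT HB 1, 2 or 3 (adjusted p up to 0.14) and in the fit of the 6 arrays alone. Among 8 genes of uterine epithelium and its secretions 1, *CP*, ceruloplasmin, was lower (-2.11, adjusted p = 0.0031). That is 12.5% of the list, against 3.38% of all genes. The part of other cells in the results was not tested.

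**Figure D5:**
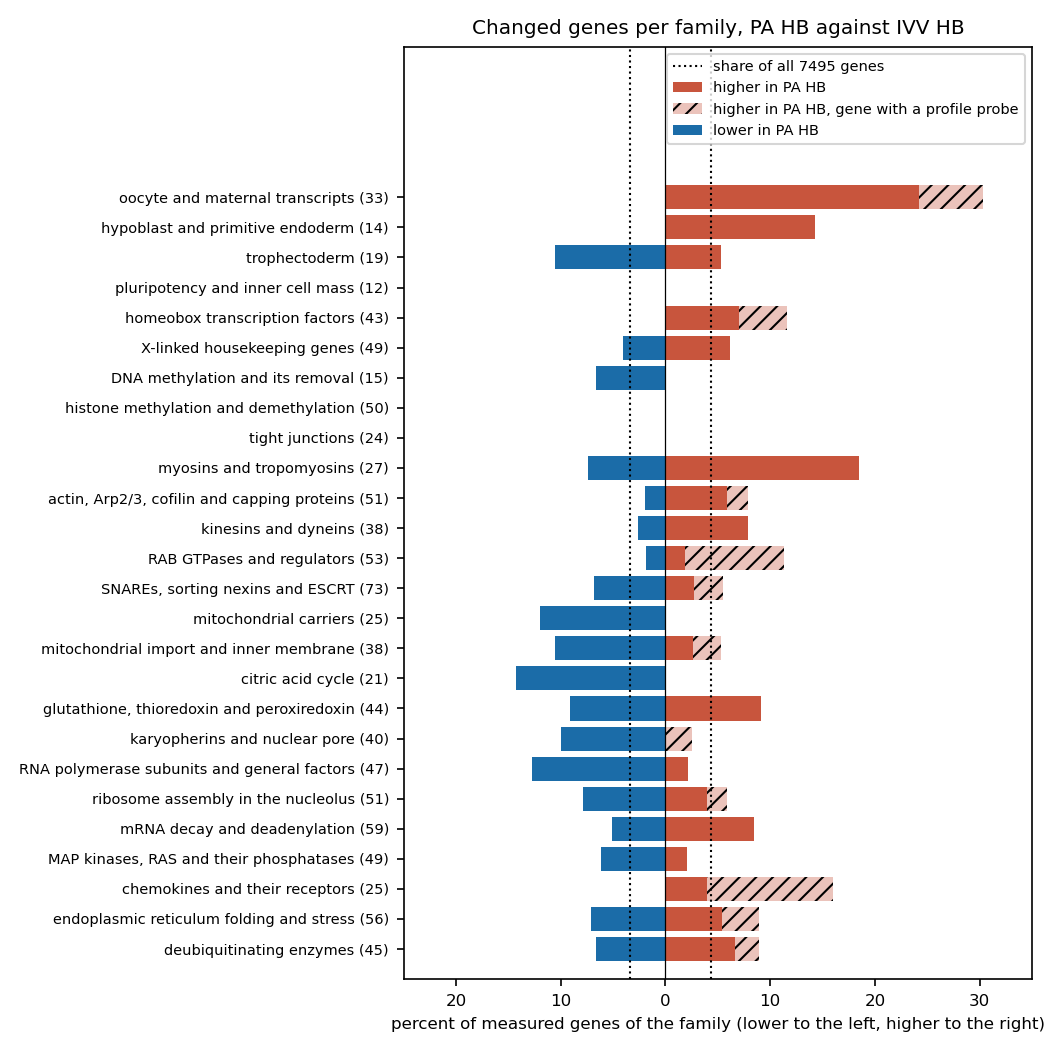
Share of the measured genes of 26 families (number measured in parentheses, vertical axis) that were called higher (right) or lower (left) in PA HB, in percent (horizontal axis), with genes that hold a profile probe hatched. Dotted lines mark the shares over all 7495 genes, 4.34% higher and 3.38% lower; oocyte transcripts reach furthest to the right, and RAB genes and chemokines are mostly hatched.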

How the data were processed

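Per the labels and the study's methods, each of 9 arrays compared a pool of 5 hatched blastocysts (Cy5) with a common reference (Cy3). The authors subtracted the background and applied loess within each array, and the deposited values are taken as log2 ratios of embryo over reference; log base and direction are not written beside the values. The base is assumed, and the direction is taken from the dyes; in it, most oocyte transcripts lie below 0, that is, lower than in a reference pool that holds oocytes. Of 23971 probes 10344 had a gene symbol. Of these symbols 201 were updated, by accession or by an unambiguous synonym, and probes were averaged to 7495 genes. Intensities were not used, so no filter on dim probes was possible. Group means over all 9 arrays were fitted with limma 3.58.1 (R 4.3.3), and its moderated test was two-sided, with Benjamini-Hochberg adjustment. Adjusted p in the text are from this fit. On simulated data with 50 genes each at log2 differences of 1.5, 2, 3 and 4, all were recovered and 2 of 7295 unchanged genes were called. The simulated spread was independent between genes, without a shared profile, and no changed gene was simulated below 1.5. It therefore checks the code only and cannot show how reliable the calls in these data are. Profile probes have r of at least 0.95 with the median profile of 4 genes and an SD of at least 0.8. Families were defined by symbol, and members and lists were chosen with earlier results of these data known. Named by rule were up to 5 changed members a family with the smallest adjusted p, or the 1 with the smallest where none changed, and the imprinted, Y-linked and DNA methylation genes. The rule was not kept throughout: many members with a profile probe, and microRNA genes, were only counted, and further changed members and unchanged relatives were chosen after their values were seen. Alternatives were other normalizations, probe summaries, filters, priors, array weights, thresholds, a replicate block and leaving out each array. No sequences are shown.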

Additional observations from a re-analysis of the deposited data

How the results depend on the processing

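The 578 changed genes (325 higher, 253 lower) numbered 580 after median centring, 335 after quantile normalization (129 higher, 206 lower) and 503 after scale normalization (340 higher, 163 lower), so that 38.5% and 67.6% of the calls were higher after the last 2, against 56.2%. Without profile probes 459 genes were changed, 203 of them higher. The fit of single probes, with the probe of smallest p kept for each gene, called 899 genes (491 higher, 408 lower). That choice of probe favours calls. With no minimum fold 1040 genes passed (524 higher, 516 lower) and with 1.5-fold 1017 (508 higher, 509 lower). Leaving out 1 of the 9 arrays gave 273 (without IVV HB 1) to 755 (without PA HB 1) changed genes, 127 to 435 higher and 146 to 320 lower. Without IVV HB 2 it was 686, without IVV HB 3 446, without PA HB 2 342 and without PA HB 3 450. The fit of the 6 arrays alone, the median of probes, the robust prior, array weights and the omission of the least variable 25% of genes gave 484 to 642. The cause of these shifts was not tested.

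Replicate numbers recur in the groups. The deviations of same-numbered PA HB and IVV HB arrays correlated at 0.207, 0.115 and 0.029 over genes, against at most 0.084 for different numbers, which does not pair the arrays. With a replicate block 616 genes were changed (350 higher, 266 lower).

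Among the family genes, quantile normalization ended the call of 97 of 139 higher and 43 of 100 lower genes, and scale normalization that of 78 and 54. The cause was not tested. Signs turned for genes near 0 that were not called. After quantile normalization the difference was -0.11 for *CDX2*, -0.015 for *Impact*, -0.045 for *NNAT*, -0.062 for *POLR3F*, 0.09 for *PON1*, -0.029 for *SGCE* and -0.049 for *TET2*. After scale normalization the difference was -0.12 for *CDX2*, -0.032 for *Impact*, 0.16 for *MEST*, -0.06 for *NNAT*, -0.074 for *POLR3F*, 0.075 for *PON1*, -0.048 for *SGCE* and -0.072 for *TET2*. With the median of probes the difference was -0.057 for *GNAS*. After median centring the difference was 0.038 for *PON1*. With array weights the difference was -0.018 for *SGCE* and -0.068 for *TET2*. Leaving out single arrays gave -0.039 to 0.069 for *CDK7*, -0.22 to 0.22 for *CDX2*, -0.43 to 0.021 for *CLDN4*, -0.30 to 0.19 for *EIF1AY*, -0.11 to 0.089 for *ERCC3*, -0.023 to 0.31 for *GNAS*, -0.22 to 0.003 for *INPP5F*, -0.084 to 0.13 for *Impact*, -0.80 to 0.26 for *MEST*, -0.066 to 0.08 for *MYH10*, -0.15 to 0.22 for *NNAT*, -0.006 to 0.32 for *POLR3A*, -0.13 to 0.22 for *POLR3F*, -0.20 to 0.12 for *PON1*, -0.003 to 0.18 for *SGCE*, -0.65 to 0.047 for *TET1* and -0.18 to 0.16 for *TET2*.

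Intensities were not used, so that dim and saturated probes were not set aside, and 3 arrays a group limit the precision. A ratio does not separate a high embryo pool from a low reference, and the dyes were not swapped.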

Other observations

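The 13627 probes without a gene symbol held 785 that were higher in PA HB and 491 that were lower by the same thresholds (9.36%), against 524 and 460 of the named probes (9.51%). Of the 785, 312 followed the shared profile. These probes entered no comparison between families, and their genes are not named here.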
